A study of Mus musculus with 12 samples.

Results

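The loss of Kdm3a was followed in XX gonadal cells, in which no effect can pass through Sry, the switch gene of the testis on the Y chromosome. The comparison set all 3 mutant XX arrays of the series against all 3 control XX arrays, 6 of the 12 arrays in all, each made from the cells of 1 female mouse embryo at embryonic day 11.5. Controls were heterozygous for the mutant allele of Jmjd1a (current symbol Kdm3a), and mutants were homozygous for it and labelled null, so no wild-type cells enter and every value compares no working copy with 1. All embryos carried the Nr5a1/CD271 transgene, which places the surface protein CD271 on cells that use Nr5a1, a nuclear receptor of the gonad and adrenal gland. Gonads were dissociated together with the mesonephroi, the fetal kidneys beside them, and CD271-positive cells were taken with magnetic beads, about 40000 of about 200000 per embryo. The labels call these cells gonadal somatic cells, and the other 6 arrays were male embryos of the same design.

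Kdm3a is an enzyme that removes methyl groups from lysine 9 of histone H3, a mark found on silent chromatin, and it therefore acts mostly as a coactivator. In XY gonads it is known for its action at Sry, and mutant XY mice can develop as females. XX gonadal cells at the same stage still carry the shared, undecided program of the bipotential gonad and begin to follow the ovarian path through Wnt signalling.

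A level is log2 of the signal minus log2 of the array's 75th percentile, so a level can be compared between arrays for one probe and not between probes. Changes are the mutant mean minus the control mean on that log2 scale with its standard error from limma, n = 3 embryos per group, and a gene was called at a Benjamini-Hochberg adjusted p under 0.05 over all 19024 features tested (13194 named genes and the rest accessions). On the XX arrays, 61.5% to 65.2% of spots exceeded background clearly, and the 75th percentile ranged from 188.7 to 299.5. Precision is limited by the number of arrays. The p-values rest on a residual pooled over all 4 groups, XY arrays included. That residual mixes differences between embryos with differences between slides, since neither the XX controls nor the XY mutants all lay on the same slide. Litters cannot be taken into account, since the sources used here give none. Controls 1 and 2 lay on a slide without XX mutants, and control 3 shared a slide with mutants 1, 2 and 3. Control 3 resembled the mutants more than the other controls: its levels correlated at 0.988 to 0.992 with the 3 mutants across features, and at 0.978 and 0.985 with controls 1 and 2. The called features are therefore also read as a whole without control 3 and within the shared slide, where 3 mutants meet 1 control, and such values are given for single genes where they end a call and for some leading genes.

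Kdm3a itself fell in all mutant embryos. Its level was 2.91, 2.81 and 2.96 in controls 1, 2 and 3 and 0.68, 0.75 and 0.43 in mutants 1, 2 and 3. All mutants thus stood well below all controls, and the controls, which carry 1 working copy, lay within a narrow range. The change was -2.27 ± 0.137, or 4.84-fold (limma adjusted p = 3.83e-05), and -2.34 within the shared slide. A second Kdm3a probe stood at -2.48, -2.66 and -2.68 in controls and at -7.27, -7.35 and -7.26 in mutants. It was above background in every control and in no mutant, a fall of at least 6.21-fold (limma adjusted p = 1.26e-09 with every probe tested), where the bound sets the control mean against the lowest signals well above background. The sources used here do not say whether the deleted stretch covers either probe. The other members of the family were measured without a called change: Kdm3b at 0.60 ± 0.245 (limma adjusted p = 0.468) and Jmjd1c at 0.12 ± 0.159 (limma adjusted p = 0.695).

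The response of XX cells was small in number and almost wholly downward. In all, 68 features (0.357% of those tested) were called, 67 lower in mutants (0.352%) and 1 higher (0.00526%), the acyltransferase gene Gpat2. Fold changes of the 68 began at 1.55, with 56 over 2-fold and 17 over 4-fold, and the median of the 67 that fell was -1.38 against -0.05 over all features tested. Falls outnumbered rises less steeply over all features, with 56.3% of them lower in mutants. All 3 mutants lay outside the range of the 3 controls for all 68, which the selection favours, and this held for 7.41% of all features in the lower direction and 5.42% in the higher. The fall did not end in silence for most genes: 59 of the 67 were still well above background in all mutants, 2 in some and 6 in none. The count depended on single arrays, at 36 without control 1, 34 without control 2, 131 without control 3 (102 lower and 29 higher), 33 without mutant 1, 42 without mutant 2 and 41 without mutant 3. Of the 68, 28 kept their call whichever array was left out, and 61 kept it without control 3. Among 10 further probes of called genes, all 10 changed in the same direction and 4 were called with every probe tested. With the slide as a block 14 features were called, 11 of them among the 68. Kdm3a, Vav3, Myl7, Pnliprp2, Tnni3, Smtnl1, Ccdc182 and Plac1 were among these with 2 features known by accession, and Gpat2 and the other called genes named below were not. Within the shared slide all 67 falls lay below 0, with a median of -1.34 against 0.02 over all features; control 3 was one of the arrays that chose them.

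**Figure D1:**
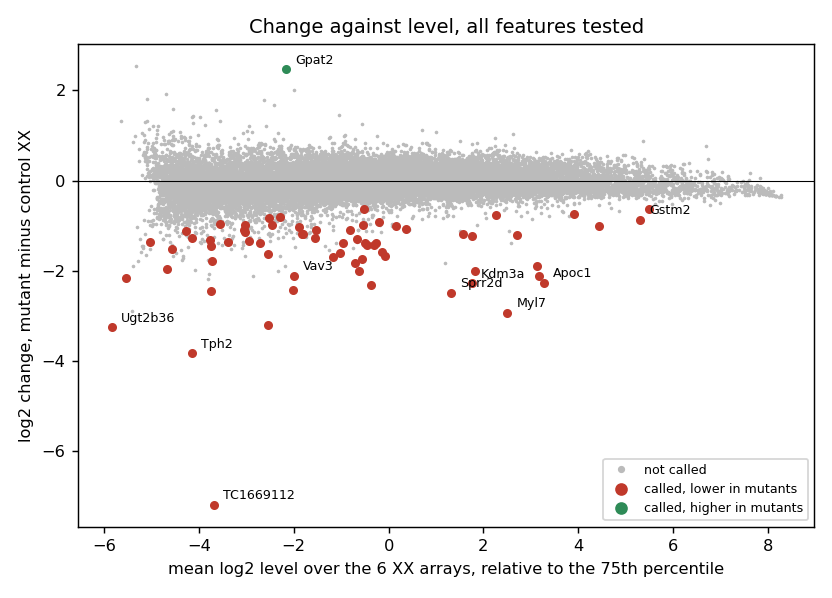
Change in XX mutants against controls (log2) plotted against the mean level over the 6 XX arrays (log2, relative to the 75th percentile of the array). Each grey point is 1 of the 19024 features tested and each coloured point 1 of the 68 called; the called features lie almost all below 0, with Gpat2 as the only one above it.

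The sequences before the start sites of the genes that fell held fewer CG dinucleotides than those of the tested genes as a whole, a property that the choice of genes did not use. Promoters were taken from RefSeq (GRCm38.p6) as the 250 bases upstream of the first listed start, and 46 of the 67 genes that fell had an entry. Their promoters held a median of 3.5 CG dinucleotides (quartiles 2 and 7), against 15 (9 and 22) in the 10515 promoters of all tested named genes, and 6 in all 27025 promoters of the table. Fewer than 5 CG were found in 24 of the 46 (52.2%), against 12.7% of tested genes and 44.5% of all promoters in the table. The letters TATAAA, read on both strands, occurred in 23.9% of the 46, 7.01% of tested genes and 13.0% of all promoters. A match to the CArG box, the motif of serum response factor in muscle genes, occurred in 2 of the 46, Myl7 and Myl3, and in 1.31% of tested genes; a CArG box can hold TATAAA within it. Neighbouring family members share sequence, so these promoters are not independent, and no test was made of these shares. The following promoters, written 5′ to 3′ along the gene with each CG in capitals, were chosen as leading members of the groups below and span 2 CG in Cpa1 to 24 in Vav3, with 11 in Gpat2, the gene that rose.
Myl7: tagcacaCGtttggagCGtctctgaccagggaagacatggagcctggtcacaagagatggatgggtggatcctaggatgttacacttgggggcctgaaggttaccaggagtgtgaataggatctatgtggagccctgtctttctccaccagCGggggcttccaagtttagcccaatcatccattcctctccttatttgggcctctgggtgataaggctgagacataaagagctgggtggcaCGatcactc
Cpa1: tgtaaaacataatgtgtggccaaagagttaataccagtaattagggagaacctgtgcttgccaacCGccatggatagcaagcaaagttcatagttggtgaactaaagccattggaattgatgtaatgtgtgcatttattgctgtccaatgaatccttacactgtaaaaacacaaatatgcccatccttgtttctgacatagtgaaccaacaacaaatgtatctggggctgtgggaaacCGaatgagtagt
Sprr2d: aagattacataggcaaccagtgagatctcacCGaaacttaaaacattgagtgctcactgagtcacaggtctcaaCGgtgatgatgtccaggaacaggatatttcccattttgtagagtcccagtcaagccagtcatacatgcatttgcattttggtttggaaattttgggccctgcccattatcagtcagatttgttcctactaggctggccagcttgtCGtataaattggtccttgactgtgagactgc
Vav3: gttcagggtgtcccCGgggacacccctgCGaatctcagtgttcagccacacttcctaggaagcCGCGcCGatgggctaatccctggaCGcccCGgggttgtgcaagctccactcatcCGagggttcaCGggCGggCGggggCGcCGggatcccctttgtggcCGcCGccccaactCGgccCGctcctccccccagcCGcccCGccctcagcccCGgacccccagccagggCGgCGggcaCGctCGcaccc
Gpat2: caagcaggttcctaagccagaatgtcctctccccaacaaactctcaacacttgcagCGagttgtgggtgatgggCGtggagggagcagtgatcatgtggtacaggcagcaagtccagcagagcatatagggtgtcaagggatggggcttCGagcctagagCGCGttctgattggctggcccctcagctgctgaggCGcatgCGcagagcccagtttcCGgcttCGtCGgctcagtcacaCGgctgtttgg
They lie at chr11:5898783-5899032 (minus strand), chr6:30638968-30639217 (plus), chr3:92338890-92339139 (plus), chr3:109340433-109340682 (plus) and chr2:127424949-127425198 (plus). Sprr2d and 10 other promoters of the 46 held TATAAA, while Myl7, Vav3, Cpa1 and Gpat2 did not.

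**Figure D2:**
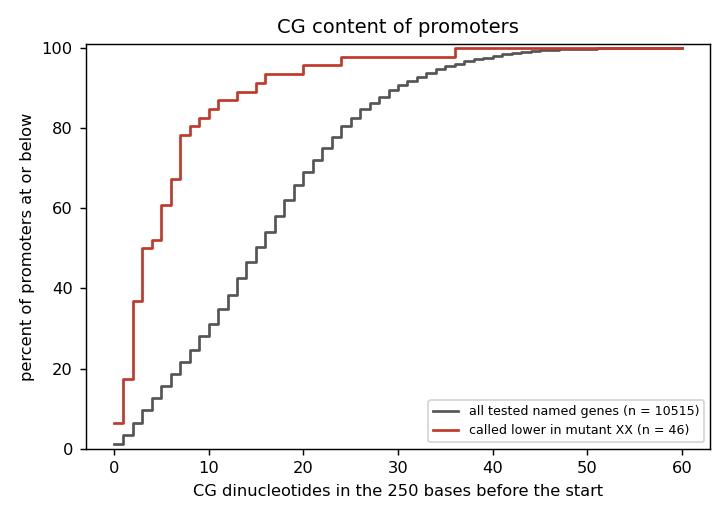
Cumulative share of promoters (percent) by the number of CG dinucleotides in the 250 bases upstream of the start site, for the 46 genes called lower in XX mutants and for the 10515 tested named genes with a promoter entry. The curve of the called genes rises earlier: 52.2% of them hold fewer than 5 CG, against 12.7% of tested genes.

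Genes of the contractile apparatus of heart and skeletal muscle were among those that fell, 4 of 16 measured, against 0.352% of all features called lower. The list was made with earlier results of these data known, so its direction is not independent evidence. Myl7, the regulatory light chain of atrial myosin, had levels of 4.32, 4.01 and 3.59 in controls 1, 2 and 3 and 1.09, 0.88 and 1.14 in mutants 1, 2 and 3. The groups lay far apart, with control 3 the lowest control. The fall was 2.93 ± 0.217 on the log2 scale, or 7.65-fold (limma adjusted p = 1.17e-04), and the change was -2.55 within the shared slide. Myl1, the fast skeletal light chain, stood at 3.06, 2.67 and 2.71 in controls and at 0.59, 0.85 and 0.99 in mutants, with no overlap between the groups, 4.01-fold lower (limma adjusted p = 7.17e-04). Tnni3, the cardiac troponin I that holds actin and myosin apart at rest, stood at 0.43, 0.39 and 0.12 in controls and -1.19, -1.56 and -1.54 in mutants. It too was lower in every mutant than in any control, by 3.35-fold (limma adjusted p = 2.96e-04). Smtnl1, a smoothelin-like regulator of muscle contraction, changed by -2.46 ± 0.246 (limma adjusted p = 8.83e-04), with levels of -2.37, -2.28 and -2.90 in controls and -5.17, -4.68 and -5.07 in mutants, the latter above background in 2 of the 3 embryos. Myl3, the ventricular light chain, fell 3.26-fold (limma adjusted p = 8.59e-04), but a second Myl3 probe gave -0.26 ± 0.274 (limma adjusted p = 0.636 with every probe tested).

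Most other sarcomere genes did not pass the test. Of the 20 heart and skeletal muscle genes listed, 16 were above background, 4 fell (Myl7, Smtnl1, Tnni3 and Myl3), none rose, and 11 had a change below 0; the median of the 16 was -0.37 against -0.05 over all features. The 4 calls were the same number without control 3 and with any other XX array left out, and 3 with the slide as a block. Uncalled members included Myh6, the atrial heavy chain, at -0.41 ± 0.266, Myl4 at -0.22 ± 0.190, Tnnt2 at -0.36 and Actc1, cardiac actin, at 0.51 ± 0.314. Ttn, Tnnc1, Pln and Nppb were not above background. The groups lay apart in the lower direction for 7 of the 16, against 7.41% of all features. The mean level of the 16 genes was -1.74 to -1.55 in controls and -2.32 to -2.25 in mutants. Further groupings, chosen after their values were seen, gave the same picture of a few members moving: 3 of 9 measured myosin light chains fell (Myl7, Myl1 and Myl3) and 2 of 7 troponins (Tnni3 and Tnnt1). Tnnt1, slow skeletal troponin T, fell by 0.76 ± 0.126 (limma adjusted p = 0.030) and lost its call with any array but control 3 left out, with adjusted p up to 0.163. Hspb2, a small heat shock protein of muscle picked after its value was seen, fell 2.61-fold (limma adjusted p = 8.59e-04). Of 11 smooth muscle genes none was called, where 0.357% of all features were, the smallest p belonging to Actg2 at 0.40 ± 0.125 (limma adjusted p = 0.375) and Smtn at 0.32 ± 0.142. These are bulk samples, in which fewer cells of a type and less RNA per cell cannot be told apart. Probes of related myosin or troponin genes may share signal.

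**Figure D3:**
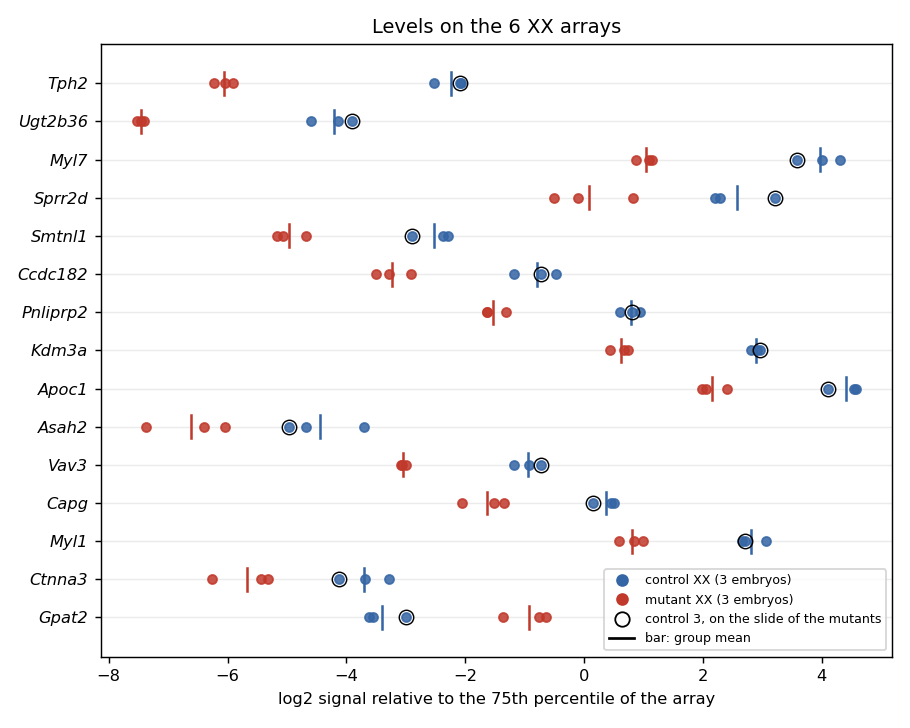
Levels (log2, relative to the 75th percentile of the array) of named genes in each of the 6 XX embryos, controls and mutants side by side; each point is 1 embryo. Mutants and controls do not overlap for any gene drawn, which was a condition of the choice of these genes. Gpat2 alone is higher in mutants.

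Digestive enzymes of the exocrine pancreas fell too, 5 of 9 measured, against 0.352% of all features called lower. Pnliprp2, a lipase related to pancreatic lipase, had levels of 0.61, 0.95 and 0.81 in controls and -1.63, -1.31 and -1.63 in mutants. Every mutant lay more than a doubling below every control, and the fall was 4.98-fold (-2.32 ± 0.170, limma adjusted p = 1.17e-04; -2.34 within the shared slide). Cpa1, the pancreatic carboxypeptidase that trims digested protein, stood at 4.30, 3.82 and 4.09 in controls against 2.03, 2.34 and 2.17 in mutants, lower by 3.72-fold (limma adjusted p = 7.74e-04). The groups did not overlap for Cpa1 either, and it was well above background in the mutants. Pnliprp1 (-1.68 ± 0.158, limma adjusted p = 7.74e-04), Pnlip, pancreatic lipase itself (-1.24 ± 0.190, limma adjusted p = 0.020), and Cela3b, an elastase (-1.10 ± 0.192, limma adjusted p = 0.039), fell less.

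Of 14 listed enzymes on the array 9 were above background, 5 fell (Pnliprp2, Cpa1, Pnliprp1, Pnlip and Cela3b), none rose, and the median was -1.10. The list was made with results of these samples known, so its direction is not independent evidence. The mean level of the 9 was -0.52 to -0.47 in controls and -1.67 to -1.40 in mutants. Cel, Ctrb1, Cela1 and Rnase1 were not called, at -0.24, -0.05, 0.12 and -0.67, and Prss2, Cpb1, Cela2a, Amy2a5 and Clps were not above background. Without control 3 the count was 4, without any other array 3, and with the slide as a block 1 (Pnliprp2). Cela3b lost its call with each of the 6 arrays left out (adjusted p up to 0.204), and Pnlip with each except control 3 (up to 0.111).

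The Sprr2 cluster encodes small proline-rich proteins that are cross-linked into the envelope of squamous epithelial cells. Of its 8 measured members 4 fell, against 0.352% of all features called lower. Sprr2d stood at 2.20, 2.29 and 3.21 in controls and at -0.50, 0.83 and -0.10 in mutants. Control 3 was the highest control and mutant 2 the highest mutant, and the groups did not overlap. The change was -2.49 ± 0.358 or 5.62-fold (limma adjusted p = 0.013), and the call was lost without mutant 1 or mutant 3 (adjusted p up to 0.064). Sprr2g changed by -1.35 ± 0.153 (limma adjusted p = 0.0024), Sprr2e by -1.29 ± 0.224 (0.039) and the pseudogene Sprr2j-ps by -1.09 ± 0.169 (0.021); Sprr2e lost its call with 5 and Sprr2j-ps with 3 of the 6 arrays left out (up to 0.183 and 0.117). Grouped after their values were seen, 8 of 9 family members were above background, all 8 had a change below 0, 4 were called, and the median was -1.0. The call count was 3 without control 3, 2 without control 2, 1 without mutant 1 or mutant 3, and 0 with the slide as a block or with only the 6 XX arrays in the fit, so the calls draw on the spread pooled with the XY arrays. These genes are close copies, so signal may be shared between their probes. Krt14, a keratin of basal epithelium picked after its value was seen, changed by -0.83 ± 0.140 (limma adjusted p = 0.034), a call lost with any array but control 3 left out (up to 0.168).

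Of the 10 measured genes of the interferon response list, 1 passed the test. Oas1a, which makes the messenger that activates RNase L, was the only called gene among the 10 measured interferon response genes. Its levels were -2.76, -2.75 and -2.60 in controls and -4.46, -3.99 and -3.75 in mutants. All mutants lay below all controls, for a fall of 2.57-fold (limma adjusted p = 0.034). The call was lost with any array but mutant 3 left out (adjusted p up to 0.139; 0.061 without control 3). With the slide as a block no gene of the list was called. All 10 genes had changes below 0, as 56.3% of all features had, and their median was -0.89. The groups lay apart in the lower direction for 7 of the 10, against 7.41% of all features. The mean level of the 10 was -1.59 to -1.43 in controls and -2.53 to -2.34 in mutants. This list, too, was made with earlier results of these data known. Isg15, the ubiquitin-like modifier, stood at -2.44, -2.06 and -2.10 against -3.82, -4.20 and -3.58, without overlap, but its change of -1.67 ± 0.353 did not pass (limma adjusted p = 0.113), nor did that of Usp18 (-1.30 ± 0.295, limma adjusted p = 0.150). Ifit1, Ifit3, Irf7 and Ifi44 were not above background.

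Related families, grouped after their values were seen, added calls, where 0.352% of all features were called lower. Ifi27, a small mitochondrial and nuclear membrane protein gene, stood at 3.15, 3.48 and 3.30 in controls and 1.99, 2.04 and 2.28 in mutants, with no overlap, 2.31-fold lower (limma adjusted p = 0.0072; 0.050, no longer called, without mutant 1), and its neighbour Ifi27l2a fell by 1.18 ± 0.207 (0.041). Of 5 measured guanylate-binding proteins, GTPases that act against pathogens inside cells, 2 were called: Gbp2 at -1.39 ± 0.217 (limma adjusted p = 0.022) and Gbp3 at -1.79 ± 0.291 (0.029; 0.056 without control 3). Oas1f (-0.98 ± 0.170, limma adjusted p = 0.039; 0.061 without control 3) brought the Oas family to 2 of 6, and Ifitm2, which blocks viral entry, fell by 0.73 ± 0.113 (0.020), 1 of 4 measured Ifitm genes. Ifi27l2a, Gbp2, Gbp3, Oas1f and Ifitm2 each lost the call with 4 or 5 of the 6 arrays left out, at adjusted p up to 0.229. Second probes of Ifi27l2a and Ifitm2 gave -1.02 and -0.69 and were not called (limma adjusted p = 0.065 and 0.074 with every probe tested). With the slide as a block, none of the Oas, Gbp, Ifi27 and Ifitm genes was called. Within these families, too, probes may share signal. Of 11 macrophage and leukocyte markers on the array 5 were above background and none was called, with a mean level of -3.54 to -2.35 in controls and -4.46 to -2.35 in mutants; Ptprc, Adgre1, Fcgr3, C1qa, Lyz2 and Cx3cr1 were not above background. Tyrobp, an adaptor of myeloid receptors, was above background in all 6 embryos, at -0.52, -1.45 and -2.96 in controls and -1.16, -4.19 and -0.96 in mutants, so control 3 and mutant 2 were lowest and the groups overlapped. The part of such cells in these falls was not tested.

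Other genes that fell belonged to none of these lists. Tph2, the tryptophan hydroxylase of serotonin neurons, stood at -2.08, -2.52 and -2.09 in controls and at -6.05, -6.22 and -5.91 in mutants. All controls were well above background and no mutant was, so the fall is at least 8.06-fold (limma adjusted p = 8.83e-04), a bound of the same kind as for the second Kdm3a probe. Tph2 lost its call with the slide as a block (limma adjusted p = 0.073), though control 3 alone stood as far above the mutants as the other controls. It was the only called gene of 9 neural markers, a list also made with earlier results of these data known. Ugt2b36, a glucuronosyltransferase that conjugates steroids and drugs, stood at -4.14, -4.59 and -3.90 against -7.41, -7.53 and -7.45, at least 2.04-fold lower (limma adjusted p = 0.0073), with all mutants at background; its call ended under normexp background correction and with the slide as a block (limma adjusted p = 0.118 and 0.087). Ctnna3, a catenin of cardiac cell junctions, fell at least 2.92-fold (limma adjusted p = 0.015; up to 0.084 without control 1, control 2 or mutant 1), and Asah2, the neutral ceramidase, at least 1.73-fold (0.030; up to 0.094 without control 1, control 2, mutant 1 or mutant 3). Of 11 alternatives other than leaving out an array, 4 ended the call of Ctnna3 and 8 that of Asah2.

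Vav3, a guanine nucleotide exchange factor, varied little within either group. It stood at -0.92, -1.17 and -0.72 in controls and at -3.07, -3.00 and -3.06 in mutants, the latter nearly identical. The fall was 4.30-fold (limma adjusted p = 3.83e-05), and Vav3 was also called with the slide as a block (-2.32). Apoc1, an apolipoprotein that inhibits lipid uptake, stood at 4.54, 4.59 and 4.11 against 1.99, 2.06 and 2.40, 4.81-fold lower (limma adjusted p = 8.59e-04). Capg, an actin-capping protein, stood at 0.46, 0.50 and 0.15 against -1.35, -2.05 and -1.51, 4.03-fold lower (limma adjusted p = 7.74e-04). Neither gene's groups overlapped, and neither passed with the slide as a block (limma adjusted p = 0.067 and 0.066). Ccdc182, a coiled-coil gene, stood at -0.48, -1.18 and -0.73 against -3.49, -3.29 and -2.91, again apart, 5.41-fold lower (limma adjusted p = 0.0024). Gstm2, a glutathione transferase, was the called member of its family of 7, at 5.88, 5.80 and 5.50 against 4.77, 4.91 and 4.91, a fall of 1.82-fold (limma adjusted p = 0.012; up to 0.075 without control 1, control 2 or mutant 1).

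The following called genes were named after their values were seen. Plac1, an X-linked gene of the placenta, fell 2.71-fold (limma adjusted p = 0.0055), and Ak7, an adenylate kinase of cilia, fell 2.60-fold (0.0024). Pglyrp1, a receptor for bacterial cell walls, fell 2.98-fold (0.0068), and Aire, the factor that drives tissue-restricted genes in the thymus, fell 2.60-fold (0.034), a call lost with each array left out (up to 0.140). Slc7a11, the cystine transporter that feeds glutathione synthesis, fell by 0.81 ± 0.133 (limma adjusted p = 0.029, and up to 0.128 with any array but control 3 left out). A second Slc7a11 probe gave -1.58 ± 0.592 and was not called (limma adjusted p = 0.457 with every probe tested). Among the 9 called features known only by accession, TC1669112 had the largest log2 difference, with levels of 0.15, -0.03 and -0.37 in controls and -7.27, -7.31 and -7.24 in mutants. No mutant was above background for it, and the fall was at least 35.7-fold (limma adjusted p = 1.72e-09). ENSMUST00000070879 fell 9.20-fold (limma adjusted p = 3.83e-05) and stayed above background in all mutants.

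Gpat2 was the only gene that rose. It encodes a mitochondrial acyltransferase of germ cells that takes part in the piRNA pathway. Its levels were -3.62, -3.56 and -3.00 in controls and -1.37, -0.76 and -0.64 in mutants. The lowest mutant stood well above the highest control, and the rise was 2.47 ± 0.303 or 5.54-fold (limma adjusted p = 0.0047; 0.034 at most with an array left out). Within the shared slide the change was 2.08, and with the slide as a block the adjusted p was 0.275. Other germline genes that somatic cells keep silent did not follow: of 19 on the array 13 were not above background, among them Dazl, Mael, Sycp1 and Slc25a31, and of the 6 measured none but Gpat2 was called. Ddx4, the germ cell helicase, gave 0.92 ± 0.339 (limma adjusted p = 0.448). Markers of primordial germ cells were not called either, with 8 of 10 measured at a median of 0.16. The smallest p belonged to Ifitm1 (-0.45 ± 0.180) and Pou5f1 (0.68 ± 0.293). Pou5f1 was above background in 0 XX controls and 3 XX mutants, so its value is a difference from background signal.

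Below the threshold, the other upward changes were modest. Tchh, trichohyalin of hair follicles, gave 0.74 ± 0.147 (limma adjusted p = 0.083), and Cdk5rap1, which modifies mitochondrial transfer RNA, 1.46 ± 0.316 (0.126). Zfp772 gave 0.74, Megf10 0.77, Tmem59l 0.62, Tirap 0.50 and Cdh13 0.49, all with groups apart and adjusted p between 0.125 and 0.163. Without control 3, 29 features were called higher in place of 1.

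The gonadal program did not show a called change in XX mutants, where 0.357% of all features were called. At that share, lists this short would mostly hold no call. Transcription factors of the bipotential gonad, which also check the labelled cells, were present: all 17 on the array were above background. Wt1 stood at 4.43, 4.34 and 5.01 in controls and 4.70, 5.15 and 4.76 in mutants, and Nr5a1, whose promoter drives the transgene used for purification, at -1.63, -1.23 and -0.44 against -1.11, -0.26 and -1.0. The groups overlapped for both genes, and control 3 was the highest control for each gene. No change of the 17 was below 0, the median was 0.21, and none passed; Cbx2 had the smallest p (0.51 ± 0.245, limma adjusted p = 0.480), followed by Map3k4 (0.43 ± 0.217). The median was -0.13 with the slide as a block, so its sign depended on the slide. The 95% interval of the change ran from -0.16 to 0.72 for Wt1, from -0.26 to 0.69 for Lhx9, from -0.39 to 0.65 for Gata4 and from -0.39 to 1.01 for Nr5a1, so moderate changes of these genes were not detectable with 3 embryos a group.

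Among the 13 measured genes of the ovarian Wnt and follistatin pathway none was called, against 0.357% of all features. The median was 0.15 (-0.26 with the slide as a block). Wnt4 and Rspo1, the signals that start the ovarian path, gave 0.03 and 0.05. Fst, follistatin, a Wnt target that binds activin, stood at 0.83, 1.18 and 0.93 in controls and -0.40, 0.55 and -0.51 in mutants. The groups did not overlap, but mutant 2 lay nearer the controls than the other mutants did, and the change of -1.10 ± 0.343 did not pass (limma adjusted p = 0.356). Foxl2, Axin2, Irx3 and Irx5 were not above background. Testis pathway genes without Y linkage gave no call among 15 measured and a median of -0.0029; Sox9 was at 0.41 ± 0.184 (limma adjusted p = 0.475), Cst9 at -0.80 ± 0.275 (0.408) and Gstm6 at -0.47 ± 0.143 (0.347). Steroidogenic and adrenal genes were lower in 9 of 11, with a median of -0.31 (-0.39 with the slide as a block) and no call. Their groups lay apart in the lower direction for 5 of the 11, against 7.41% of all features, and in the higher direction for 0. This list was also made with earlier results of these data known. Star, which carries cholesterol into mitochondria, stood at -0.66, -0.32 and -0.23 against -1.19, -1.08 and -1.15, without overlap, at an adjusted p of 0.089 in the limma fit, and Akr1b7 gave -0.97 ± 0.313 (0.386).

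**Figure D4:**
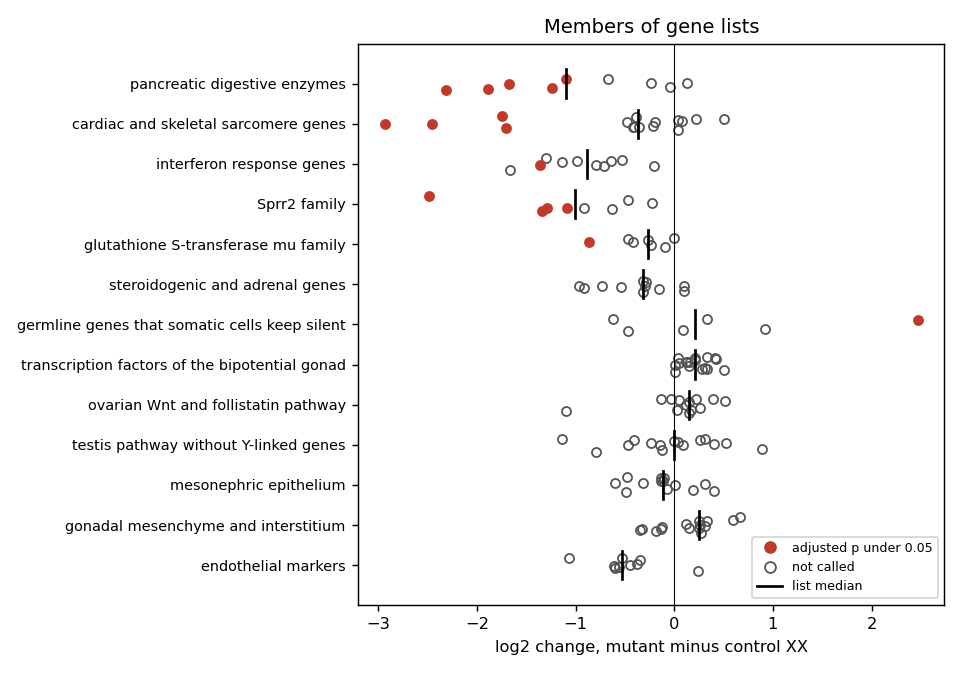
Change in XX mutants against controls (log2) of each measured member of 13 gene lists, 1 point a gene, with the list median marked and called genes coloured. The pancreatic and sarcomere lists hold called genes far below 0 beside uncalled members near 0. All 8 measured Sprr2 members lie below 0, called or not. The bipotential gonad, ovarian and testis lists hold no called gene.

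Markers of other cells that the purification could hold varied between embryos without a called difference. Endothelial markers were lower in 8 of 9, with a median of -0.53, a mean level of -1.65 to -0.90 in controls and -2.88 to -1.01 in mutants. Pecam1 stood at -3.61, -3.24 and -4.24 against -3.53, -6.35 and -4.40, so mutant 2 alone was far below the rest, and the groups overlapped. Mesonephric epithelium had a median of -0.11 over 13 genes (Calb1 -0.49 ± 0.187), and mesenchyme 0.25 over 15 (Tbx18 0.67 ± 0.207, Pdgfra 0.27 ± 0.104). Erythroid markers spanned mean levels of 0.21 to 2.56 in controls and -0.83 to 2.57 in mutants, with a median change of 0.12. No gene of the endothelial, mesonephric, mesenchymal, erythroid or macrophage list was called, against 0.357% of all features, so lists this short would mostly hold none. The part of these cells in the falls above was not tested.

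The chromatin machinery around H3K9 and DNA methylation was measured without a called change beyond Kdm3a, where 0.357% of all features were called. Other H3K9 demethylases had a median of 0.28 over 8 genes (Kdm4d -0.42 ± 0.130, Kdm4b 0.43 ± 0.200), methyltransferases and readers 0.17 over 11 (Trim28 0.59 ± 0.238, Setdb1 0.48 ± 0.212), and DNA methylation enzymes 0.22 over 9 (Tdg 0.39 ± 0.172, Uhrf1 0.38 ± 0.185). Adjusted p ran from 0.347 to 0.480 for those 6 genes. Genes reported to depend on Kdm3a in other cell types, such as the sperm nuclear proteins Prm1 and Tnp1 and the thermogenic genes Ppara and Ucp1, gave no call among 11, with a median of -0.14 (Prm1 -0.52 ± 0.197, Tnp1 -0.54 ± 0.395). Fatty acid oxidation genes had a median of -0.17 over 17 with 13 lower (Hadhb -0.48 ± 0.144, Pdk4 -0.87 ± 0.329), and hypoxia and glycolysis genes -0.11 over 19 (Egln1 0.57 ± 0.221, Slc2a1 0.36 ± 0.147). Immediate early genes (Hspa1b 0.80 ± 0.465, Jund 0.33 ± 0.243), imprinted genes (Ndn 0.35 ± 0.134, Sgce -0.28 ± 0.139), cell cycle genes (Mcm2 0.55 ± 0.161, Mcm3 0.55 ± 0.202) and genes of X inactivation and escape (Utp14a -0.39 ± 0.220, Kdm5c 0.29 ± 0.195) had medians between -0.11 and 0.13 and no call.

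The same falls were then read in XY embryos, in which Sry can act. There, too, genotype was partly tied to the slide. The 3 XY controls shared a slide with XY mutant 1, and XY mutants 2 and 3 lay on the slide of XX controls 1 and 2. Of the 67 features that fell in XX cells, 65 were also lower in XY mutants than in XY controls, 40 were called lower there (0.384% of all features were), and 27 were not. For 59 the XY groups lay apart in that direction, against 11.9% of all features. The median of the 67 was -1.14 in XY and -1.38 in XX, and 51 had the smaller fall in XY, which choosing them by their XX change favours. Myl7 changed by -2.81 in XY, Vav3 by -2.24 and Pnliprp2 by -2.49. Of the 67, 6 were above background in no XX mutant, so the sizes of those falls are not settled. Gpat2 was called higher in XY too, as 0.0736% of all features were, at 2.00 (limma adjusted p = 0.021). The fit pools the spread over all 4 groups; with each sex fitted alone, 29 of the 67 were called lower in XX and 18 in XY.

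Some falls had a smaller value in XY. Slc7a11 changed by -0.01 there against -0.81 in XX, and Megf11, an EGF-repeat receptor, by 0.18 against -1.12. Asah2 and Ugt2b36 allow no such comparison: Asah2 was above background in 0 XY controls and 1 XY mutant, Ugt2b36 in 1 and 0, and neither in any XX mutant. In the other direction, Sox9, Fgf9 and Gstm6 fell in XY mutants, by 1.05, 1.14 and 1.4 on the log2 scale (limma adjusted p = 0.036, 0.015 and 0.0012), and gave 0.41, 0.09 and -0.47 in XX. No gene can be called particular to XX from these values. The test of the difference between the XX and XY changes called 0 of 19024 features (0%), with a smallest limma adjusted p of 0.989; 689 features (3.62%) had an unadjusted p under 0.05, 16 of the 67 among them.

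**Figure D5:**
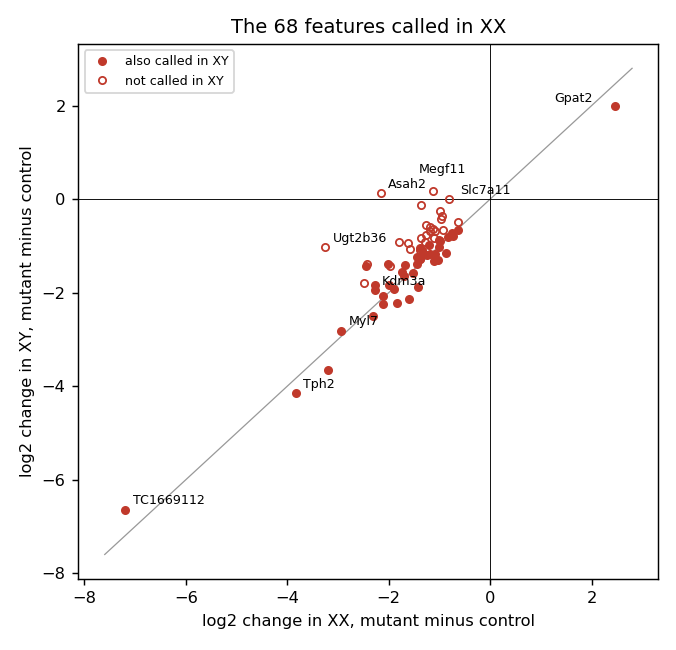
Change in XX mutants (horizontal, log2) against change in XY mutants (vertical, log2) for the 68 features called in XX, with the diagonal of equal change. Points lie near the diagonal for Kdm3a, Myl7 and Gpat2, while Slc7a11 and Megf11 lie near 0 on the vertical axis; for Asah2, Ugt2b36, Tph2 and TC1669112 no XX mutant was above background, so their positions are differences from background signal.

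Some called genes were neighbours in the genome. Of the 59 with a position, 17 were neighbours of another called gene in the order of tested named genes, in 8 runs. Among these were Pnlip, Pnliprp1 and Pnliprp2 on chromosome 19, Tnnt1 and Tnni3 on chromosome 7, Sprr2d with Sprr2e and Sprr2g with Sprr2j-ps on chromosome 3, Oas1f and Oas1a on chromosome 5, Ifi27l2a and Ifi27 on chromosome 12, and a pair known by clone names on chromosome 11. In each of these the genes belong to 1 family, apart from the pair with clone names and from Tnnt1 and Tnni3, which encode different troponin subunits. Within those families shared sequence on the array and shared position cannot be told apart. The 97 uncalled genes next to called ones had a median of -0.10, and 56.7% of them were lower, against 50.4% of all named genes. Chromosome 3 held the most calls, 9 of 643 tested, 4 of them in the Sprr2 cluster, followed by chromosome 7 with 7 of 1030 and chromosome 6 with 6 of 659. Around Kdm3a itself, none of the 20 nearest tested genes was called, with changes from -0.57 to 0.65; Capg, which lies 15 tested genes away, was.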

How the data were processed

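Gene expression was measured on single-colour Agilent arrays in purified gonadal cells of 12 single embryos, 6 of them XX. Per the labels' protocols, the RNA underwent linear amplification and Cy3 labelling. Agilent Feature Extraction is named in the submitters' processing notes, and its version was 10.5.1.1, per the file headers, with array design 014868 on mm9. Per the file headers, the deposited values are intensities: a background-subtracted processed signal, not scaled between arrays, and the median signal and local background of each spot.

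Computed here was the log2 processed signal less log2 of each array's 75th percentile, averaged per probe without outlier-flagged spots (41174 probes, from 43379 non-control spots). Accessions were named through RefSeq (GRCm38.p6), which named 27479 probes; 13695 kept the accession. Probes well above background on all arrays of either XX group were tested, the probe with the highest mean over the XX arrays standing for its gene. Group means were fitted over 12 arrays in limma 3.58.1 (R 4.3.3), with Benjamini-Hochberg adjustment. Promoter counts and figures were made in Python 3.11.15.

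The genes named were Kdm3a; up to 15 largest falls and rises among called named genes with groups apart; where few rises passed, the 8 upward genes of smallest p; and the called members of 28 lists, or else the 2 of smallest p; a few of these are not reported here. Members and lists were chosen with earlier results of these data known, and 10 family groupings after their values were seen. Where no array of a group was well above background, the fold is a lower bound. The alternatives were quantile normalization, normexp (offset 50), other filters, every probe, only XX arrays, array weights, blocks for replicate number and slide, brightness, a 1.2-fold threshold and each array left out; each sex fitted alone was added later. Normexp used the median signal, and local backgrounds marked as outliers were replaced by the median of the array. Slide and scan were 1 batch. Tested on simulated data for the XX comparison over 18964 features, with 50 changed at each size, the fit found 15 of those changed 1.5-fold, 29 of those changed 2-fold, 47 for 4-fold and 49 for 8-fold. It made 3 false calls. The simulated noise was independent between arrays and held no slide differences. These counts therefore do not measure how the slides affect the real calls.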

Additional observations from a re-analysis of the deposited data

How the results depend on the processing

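The direction and call of Kdm3a held under every alternative, from -2.34 to -2.18 with an array left out. The counts did not. Against 68 called features (67 lower, 1 higher), no filter on dim probes gave 43 (42 lower), only the 6 XX arrays 36 (34 lower, 2 higher), the same fit made beside XY alone 36, brightness as a covariate 42 (41 lower), and a 1.2-fold threshold 34 (33 lower). Normexp gave 78 with 3 higher, 52 of them shared. Array weights gave 5896 (3111 lower, 2785 higher), with a weight of 0.191 for control 3 and 3.03 for control 2. The slide block gave 14 (12 lower; Rgs4 and AK047903 higher, 2 in all) and 8 features for the difference between XX and XY; control 3 was the lowest array for Rgs4 (-5.51) and AK047903 (-6.81). Leaving out an array gave 33 to 131 called, 31 to 102 lower, 1 to 29 higher, and 0 to 0 for the difference. Quantile normalization gave 55 and the filter on all 6 XX arrays 61. The replicate block gave 48, 46 of them shared; the deviations of same-numbered arrays correlated at 0.0351, -0.326 and -0.616, so the numbers do not pair the embryos.

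Uncalled genes that changed sign were, with the slide block, Setdb1 (-0.00971), Uhrf1 (-0.0635), Map3k4 (-0.00249), Jund (-0.0490), Aif1 (0.602), Tyrobp (0.858), Utp14a (0.0574) and Kdm5c (-0.157). Pou5f1 did so under normexp (-0.0836) and Tyrobp with brightness (0.186). With an array left out, Tyrobp ranged from -1.12 to 0.58, Aif1 from -1.30 to 0.39 and Slc4a1 from -0.26 to 1.91, turned by control 1 or mutant 2, by mutant 2 and by mutant 1. Causes were not tested. With the slide as a block the XX change rests on 1 control array, and for genes near background the signal limits what can be compared.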
